A study of Mus musculus with 12 samples.

Results

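Toll-like receptors are the innate immune receptors that recognise conserved molecules of microbes and of damaged cells. The 10 members described here were taken by name from the table of read counts per gene: Tlr1, Tlr2, Tlr3, Tlr4, Tlr5, Tlr6, Tlr7, Tlr8, Tlr9 and Tlr13. All 10 were among the 24983 genes of the table, and all 10 passed the filter on low counts that left 14469 genes for testing. The libraries came from the whole liver of 12 C57BL/6J mice, 3 in each of 4 groups. Chow mice received standard chow, and the other 3 groups a NASH diet, named for non-alcoholic steatohepatitis, for 24 weeks. That diet supplied 40% of its calories as fat, part of it saturated or trans, and added fructose and cholesterol. These mice also carried a subcutaneous osmotic minipump that released polyethylene glycol alone (PEG, the vehicle group), oleic acid in PEG (OA) or nitro-oleic acid in PEG (OA-NO2). Both fatty acids were given at 5 mg/kg/day, and OA-NO2 is oleic acid that carries a nitro group. The labels of the chow mice name no pump, so diet and pump cannot be told apart between vehicle and chow. Ages and the length of infusion are not stated in the labels.

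Each receptor has an outer leucine-rich part that binds its ligand and an inner TIR domain that recruits adaptor proteins. Tlr1, Tlr2, Tlr4, Tlr5 and Tlr6 act at the cell surface: Tlr2 pairs with Tlr1 or Tlr6 to sense lipoproteins, Tlr4 senses lipopolysaccharide and Tlr5 senses flagellin. Tlr3, Tlr7, Tlr8, Tlr9 and Tlr13 act in endosomes on nucleic acids, namely double-stranded RNA, single-stranded RNA, unmethylated CpG DNA and, for Tlr13, bacterial ribosomal RNA. In liver they are best known in resident and recruited macrophages, while hepatocytes, endothelium and stellate cells carry some of them. Whole-liver RNA pools these cells, so fewer cells of a type and less RNA per cell cannot be told apart.

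Total counts ran from 8462590 in chow replicate 1 to 20613777 in vehicle replicate 3, with the second lowest total at 15972613. OA replicate 3 stood apart from its group. On the first principal component of log expression (46.4% of the variance) it lay at -13.48, against 49.62 and 39.99 for OA replicates 1 and 2 and -71.87 to -44.72 for chow. Where leaving it out changed a receptor's call or moved its log2 fold change by over 1.5 times, the value without it is given. The summed level of 6 hepatocyte markers was 134600 to 163400 CPM (read counts scaled to library totals) in chow and 48780 to 63480 CPM with vehicle, so the tissue was hepatocyte-rich in every group but its make-up of transcripts differed between diets.

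Tlr1 and Tlr6 lie near each other on chromosome 5 and share sequence, which limits how far their counts can be separated. In GRCm38 with the GENCODE M21 annotation, Tlr1 (ENSMUSG00000044827) spans chr5:64924679-64933563 and Tlr6 (ENSMUSG00000051498) spans chr5:64952031-64960097, both on the minus strand. The longest stretch that is identical in their coding exons has 229 bases, at coding bases 1468 to 1696 of 2388 in Tlr1 (chr5:64925537-64925765) and 1507 to 1735 of 2421 in Tlr6 (chr5:64953828-64954056). It is shown in full, 5′ to 3′ on the coding strand and in lower case throughout, because a read that falls inside it fits both genes:
Tlr1 and Tlr6 shared stretch: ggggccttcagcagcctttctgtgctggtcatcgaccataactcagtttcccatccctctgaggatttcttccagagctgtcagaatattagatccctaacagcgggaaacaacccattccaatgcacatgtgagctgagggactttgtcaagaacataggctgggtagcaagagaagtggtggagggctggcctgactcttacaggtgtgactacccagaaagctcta
Of the distinct 76-base stretches in the annotated transcripts, 336 of 3306 (10.2%) of Tlr1 and 336 of 3676 (9.14%) of Tlr6 occur in the other gene, more than the stretch shown can hold, so further shared stretches of that length exist. The counts of both are therefore uncertain by the share of reads placed there, and how such reads were counted is not stated in the labels or processing notes. No other pair of members shares more than 16 coding bases in a row. Tlr3 (ENSMUSG00000031639, chr8:45395665-45411080) overlaps 381 exon bases of the antisense gene Gm45542, and since the use of strand is not stated, reads of the 2 genes cannot be told apart there.

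Tlr5, the flagellin receptor, was the most abundant member in every group when levels were set per length of exons, and Tlr9 the least. In chow, Tlr5 (ENSMUSG00000079164, chr1:182954788-182976044) stood at 3.05 ± 0.378 CPM per kb (SD, n = 3) and Tlr3, the receptor for double-stranded RNA, at 1.72 ± 0.244. Tlr2 followed at 0.916 ± 0.400 CPM per kb, Tlr13 at 0.610 ± 0.105, Tlr7 at 0.584 ± 0.0889, Tlr4 at 0.340 ± 0.159, Tlr8 at 0.299 ± 0.111, Tlr1 at 0.272 ± 0.219, Tlr6 at 0.121 ± 0.0406 and Tlr9 at 0.0259 ± 0.0304. The ranges of Tlr5, Tlr3 and Tlr2 did not overlap in chow, nor did those of Tlr7 and Tlr4 or of Tlr6 and Tlr9, whereas every other pair of neighbours in this order overlapped.

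The order differed with the NASH diet, where the lipoprotein receptor Tlr2 and the ribosomal RNA receptor Tlr13 came up beside Tlr5. With vehicle, Tlr5 stood at 2.47 ± 0.695 CPM per kb, Tlr2 at 2.46 ± 0.234 and Tlr13 at 2.25 ± 0.418, and their ranges overlapped. Tlr3 followed at 1.68 ± 0.0792 CPM per kb, Tlr7 at 1.47 ± 0.131, Tlr1 at 1.39 ± 0.281, Tlr8 at 0.882 ± 0.355 and Tlr4 at 0.686 ± 0.244, each overlapping its neighbour. Tlr6 at 0.311 ± 0.0961 CPM per kb lay below Tlr4 without overlap, and Tlr9 at 0.265 ± 0.161 overlapped Tlr6. With OA the leading levels were again close, at 3.27 ± 0.831 CPM per kb for Tlr5, 3.18 ± 1.22 for Tlr2 and 3.14 ± 1.08 for Tlr13. With OA-NO2, Tlr5 at 3.35 ± 0.399 CPM per kb stood apart without overlap from Tlr2 at 1.47 ± 0.203, Tlr3 at 1.23 ± 0.175 and Tlr13 at 1.13 ± 0.346.

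**Figure D1:**
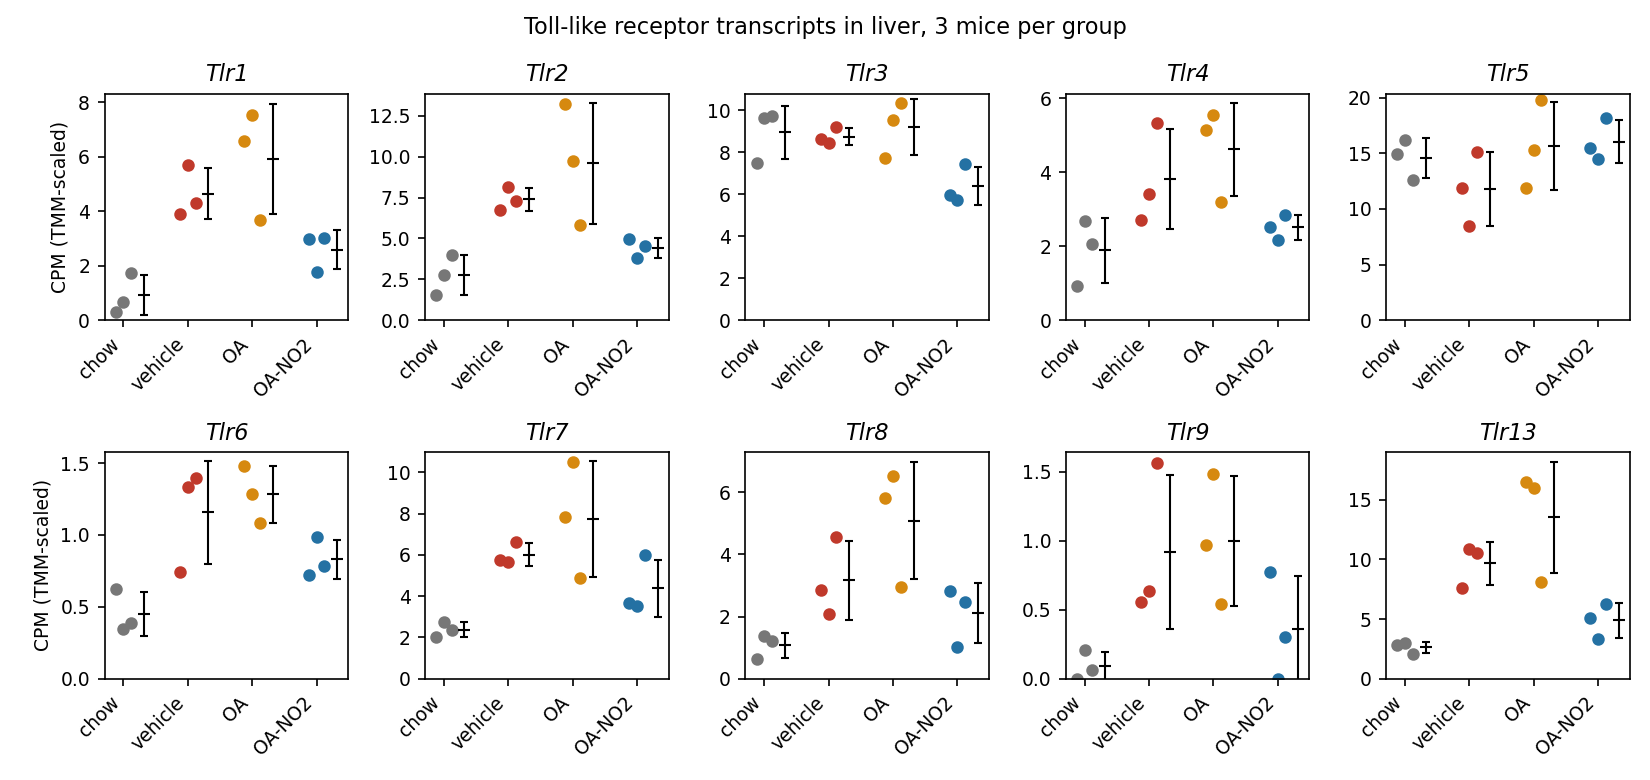
CPM on TMM-scaled totals (vertical axis, a separate linear scale from 0 for each gene) of the 10 receptors in each of the 12 mice (points), with the group mean and SD (black bars), for chow, vehicle, OA and OA-NO2. Tlr13 lies between 2.11 and 2.96 CPM in chow and between 7.59 and 10.87 with vehicle, while the points of Tlr3 and Tlr5 overlap between these groups.

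The comparison of vehicle with chow asks how the NASH diet, together with the pump, moved receptor transcripts. Of the 10 receptors, 6 rose and 0 fell: Tlr1, Tlr2, Tlr6, Tlr7, Tlr8 and Tlr13 (edgeR quasi-likelihood test, adjusted p under 0.05). Over all genes tested, 11.1% were called higher and 8.16% lower. The members' median log2 fold change was 1.40, against -0.01 over all genes. In 8 of the 10 every vehicle library exceeded every chow library, compared with 20.4% of all genes. Of these 8, Tlr6 and Tlr9 reached the filter's level of 0.573 CPM (here on plain library totals, without TMM scaling) in 0 of 3 chow libraries. Tlr1 reached it in 1 and Tlr8 in 2. So Tlr1, Tlr6, Tlr8 and Tlr9 passed the filter through the NASH diet groups.

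Tlr1, the partner of Tlr2 for triacylated lipoproteins, was at 0.31, 0.69 and 1.73 CPM in chow and at 3.91, 5.70 and 4.31 CPM with vehicle. All vehicle libraries lay above all chow libraries, and the transcript rose by 2.19 ± 0.44 on the log2 scale (SE, adjusted p = 0.00637). Tlr2 (ENSMUSG00000027995, chr3:83836272-83841767), the shared subunit of the lipoprotein receptors, was at 1.56, 2.75 and 3.97 CPM in chow and at 6.76, 8.15 and 7.31 CPM with vehicle. The groups did not overlap, with a log2 fold change of 1.35 ± 0.32 (adjusted p = 0.0126). Tlr6, the partner of Tlr2 for diacylated lipoproteins, was sparse, at 0.62, 0.34 and 0.38 CPM (15 counts in all) in chow and 0.75, 1.33 and 1.39 CPM with vehicle. Its log2 fold change was 1.44 ± 0.41 (adjusted p = 0.0275), and the call was lost on leaving out chow replicate 2 (adjusted p = 0.108), chow replicate 3 (0.0854), vehicle replicate 2 (0.0790) or vehicle replicate 3 (0.103).

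Tlr13 (ENSMUSG00000033777, X:106143204-106160493) rose with the lowest adjusted p of the 10. It was at 2.81, 2.96 and 2.11 CPM in chow and at 7.59, 10.87 and 10.52 CPM with vehicle, a log2 fold change of 1.89 ± 0.32 (adjusted p = 0.00341). The single-stranded RNA receptor Tlr7 (ENSMUSG00000044583, X:167304929-167330558) was at 2.03, 2.75 and 2.37 CPM in chow and at 5.78, 5.65 and 6.64 CPM with vehicle. Each group was tight and the 2 did not overlap, with a log2 fold change of 1.31 ± 0.30 (adjusted p = 0.0116). Its neighbour on the X chromosome, Tlr8 (ENSMUSG00000040522, X:167242696-167264329), was at 0.62, 1.38 and 1.22 CPM in chow and at 2.84, 2.08 and 4.56 CPM with vehicle. The log2 fold change of Tlr8 was 1.48 ± 0.46 (adjusted p = 0.0396). That call was kept only without vehicle replicate 2, and the other 5 fits without a library gave adjusted p from 0.0573 to 0.157: 0.0573 without vehicle replicate 1, 0.157 without vehicle replicate 3, and 0.116, 0.0799 and 0.0820 without chow replicates 1, 2 and 3. Tlr1, Tlr2, Tlr7 and Tlr13 were called in 6 of 6 such fits, with adjusted p up to 0.0337, 0.0499, 0.0438 and 0.0152. Tlr2 and Tlr7 thus came close to the threshold.

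Tlr4 (ENSMUSG00000039005, chr4:66827584-66930284), the lipopolysaccharide receptor, did not pass the test. It was at 0.94, 2.68 and 2.05 CPM in chow and at 2.70, 3.41 and 5.33 CPM with vehicle, so that the groups just failed to overlap, with a log2 fold change of 0.94 ± 0.36 and a 95% interval of 0.24 to 1.64 (adjusted p = 0.0805). Scaling by library size alone, which moved the median of all genes by 0.51 on the log2 scale, gave 1.45 and a call (adjusted p = 0.0129). Tlr9 (ENSMUSG00000045322, chr9:106222598-106226883), the CpG DNA receptor, had 0, 3 and 1 counts in chow and 12, 12 and 37 counts with vehicle (adjusted p = 0.0546). No fold is given for it against so few counts. A call for Tlr9 was made with the 2 groups fitted alone (adjusted p = 0.0197), with DESeq2 (0.0246), with library size alone (0.0191) and with no filter (0.0347).

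Tlr3 and Tlr5, the most abundant members in chow per length, gave no call and had overlapping groups. Tlr3 was at 7.49, 9.63 and 9.73 CPM in chow and at 8.62, 8.42 and 9.21 CPM with vehicle, a log2 fold change of -0.04 with a 95% interval of -0.39 to 0.30 (adjusted p = 0.884). Tlr5 was at 14.97, 16.17 and 12.61 CPM in chow and at 11.88, 8.47 and 15.13 CPM with vehicle, a log2 fold change of -0.30 with an interval of -0.74 to 0.15 (adjusted p = 0.379). The sign of both depended on the scaling, since library size alone gave 0.47 for Tlr3 and 0.22 for Tlr5. Relative to the shift of all genes under that scaling, 0.51, both lay below it.

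**Figure D2:**
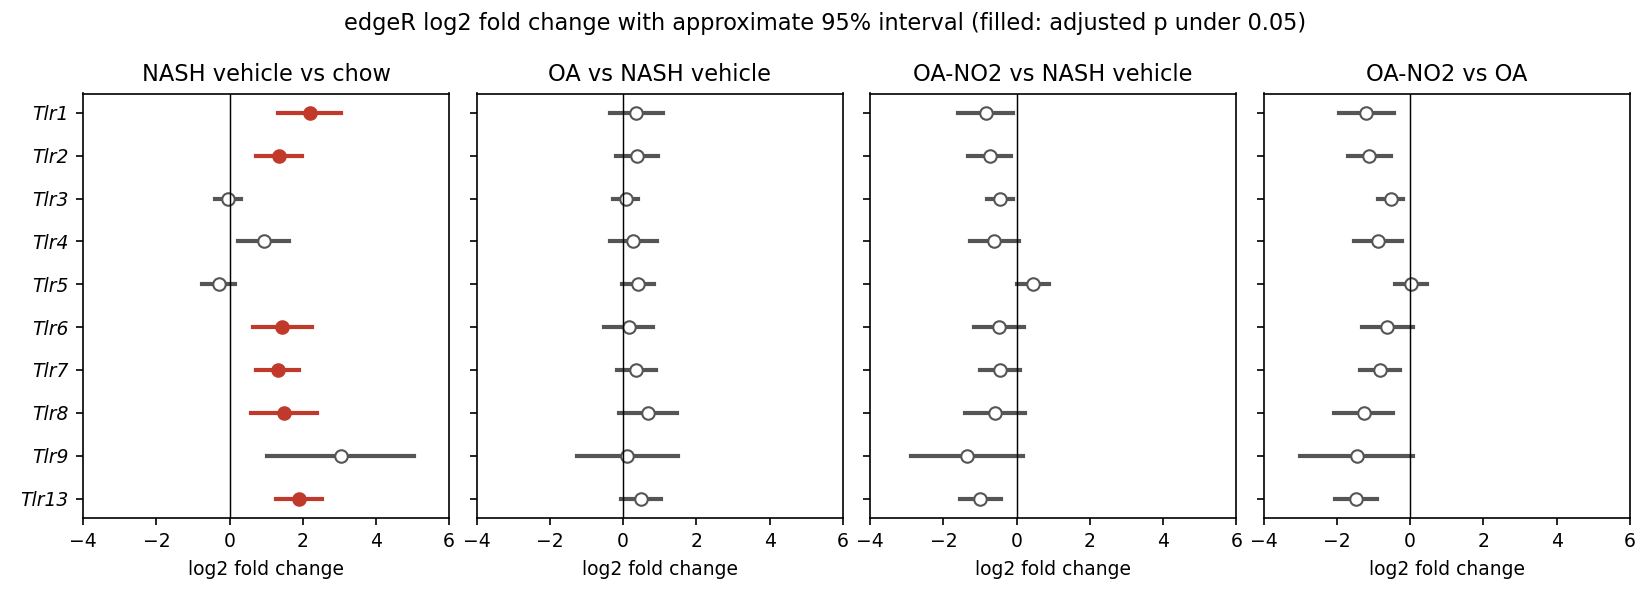
Log2 fold change (horizontal axis) of the 10 receptors in 4 comparisons, with approximate 95% intervals (bars), filled in red where edgeR's adjusted p was under 0.05. Filled points occur in the comparison of vehicle with chow, for 6 receptors; in the comparison of OA-NO2 with OA, the points of 9 receptors lie below 0 without a call. The value of Tlr9 against chow rests on 4 chow counts.

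OA did not separate from vehicle for any receptor. At this sample size 0 of the 10 were called, with 0 at an unadjusted p under 0.05 and 0 called by DESeq2. Over all genes edgeR called 0.0% higher, with 564 at an unadjusted p under 0.05, and DESeq2 called 0. All 10 log2 fold changes were positive, with a median of 0.36 (all genes, 0.00). The groups overlapped in all 10, whereas 7.81% of all genes were higher without overlap.

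Tlr13 was at 16.46, 15.94 and 8.13 CPM with OA, a log2 fold change from vehicle of 0.49 with an interval of -0.06 to 1.03 (adjusted p = 0.975). Tlr2 was at 13.20, 9.74 and 5.84 CPM, Tlr1 at 6.57, 7.54 and 3.67 CPM, Tlr7 at 7.85, 10.51 and 4.88 CPM, and Tlr8 at 5.81, 6.51 and 2.95 CPM. In each of these 5 receptors OA replicate 3 was the lowest of its group, and it was also the lowest of the 3 OA libraries for Tlr4 (5.15, 5.54 and 3.19 CPM), Tlr6 (1.48, 1.28 and 1.08 CPM) and Tlr9 (19, 29 and 9 counts). For Tlr3 (7.75, 9.53 and 10.36 CPM) and Tlr5 (11.87, 15.33 and 19.81 CPM) it was the highest. Without OA replicate 3, 0 receptors were called. The log2 fold change then went from 0.36 to 0.58 for Tlr1, from 0.38 to 0.60 for Tlr2, from 0.28 to 0.46 for Tlr4, from 0.15 to 0.23 for Tlr6, from 0.36 to 0.58 for Tlr7, from 0.68 to 0.93 for Tlr8 and from 0.49 to 0.72 for Tlr13. It went from 0.40 to 0.18 for Tlr5, from 0.07 to -0.04 for Tlr3 and from 0.11 to 0.37 for Tlr9.

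With OA-NO2 the receptors other than Tlr5 lay below vehicle, by amounts that did not pass the test across all genes. Of the 10, 0 were called by edgeR and 0 by DESeq2, and 4 had an unadjusted p under 0.05. Among all genes edgeR called 0.0207% higher (3 genes) and 0.0% lower, with 2281 at an unadjusted p under 0.05, and DESeq2 called 287. The members' median log2 fold change was -0.60, against 0.02 over all genes. In 4 of 10 (Tlr1, Tlr2, Tlr3 and Tlr13) every OA-NO2 library lay below every vehicle library, compared with 10.5% of all genes.

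Tlr13 showed the largest difference among receptors with over 20 counts in each group, at 5.04, 3.32 and 6.28 CPM with OA-NO2 against 7.59 to 10.87 with vehicle. Its log2 fold change was -0.99 ± 0.29 with an interval of -1.56 to -0.42 (adjusted p = 0.169). Tlr1 was at 2.99, 1.76 and 3.02 CPM (-0.84 ± 0.38, adjusted p = 0.307) and Tlr2 at 4.99, 3.78 and 4.53 CPM (-0.74 ± 0.30, adjusted p = 0.259). Tlr3, which gave no call between vehicle and chow, was at 5.97, 5.75 and 7.43 CPM with OA-NO2 (-0.46 ± 0.18, adjusted p = 0.242). Those values were also below every chow library. Tlr4, Tlr6, Tlr7 and Tlr8 had log2 fold changes from -0.61 to -0.46, with groups that overlapped. Tlr9 was at 15, 0 and 5 counts. Tlr5 had the opposite sign, at 15.44, 14.50 and 18.18 CPM, a log2 fold change of 0.44 with an interval of -0.002 to 0.87 (edgeR, unadjusted p = 0.0722, adjusted p = 0.362).

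OA-NO2 and OA differ by the nitro group and were infused at the same dose, so their direct comparison sets the nitrated fatty acid against its parent. edgeR called 0 of the 10 receptors, with 7 at an unadjusted p under 0.05, and DESeq2 called 1, Tlr13. Over all genes 0.00691% were called higher (1 gene) and 0.0% lower by edgeR, with 1740 at an unadjusted p under 0.05, and DESeq2 called 50. The members' median log2 fold change was -1.0, against 0.00 over all genes. In 7 of 10 (Tlr1, Tlr2, Tlr3, Tlr4, Tlr6, Tlr8 and Tlr13) all OA-NO2 libraries were below all OA libraries, compared with 7.37% of all genes.

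Tlr13 differed most beside its error, with a log2 fold change of -1.47 ± 0.29 and an interval of -2.04 to -0.90. Its unadjusted p was 0.000192 and its adjusted p 0.313. DESeq2 gave an adjusted p of 0.00479, the fit with no filter 0.0395 and the fit without OA replicate 3 gave 0.0143. Tlr2 differed by -1.12 ± 0.30 with an interval of -1.70 to -0.53 (adjusted p = 0.313), and it was called without OA replicate 3 (adjusted p = 0.0362). The log2 fold changes of the other receptors called against chow were -1.20 for Tlr1, -0.62 for Tlr6, -0.83 for Tlr7 and -1.27 for Tlr8, with adjusted p from 0.328 to 0.482. Tlr3 differed by -0.53 ± 0.18 (adjusted p = 0.340) and Tlr4 by -0.88 ± 0.34 (0.357). Tlr9, at 15, 0 and 5 counts against 19, 29 and 9, overlapped (adjusted p = 0.468). For Tlr5 the difference between the 2 fatty acids was 0.03, and its interval of -0.40 to 0.47 spans changes of that size in either direction. Without OA replicate 3 the Tlr5 difference was 0.25.

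Set against the same chow libraries, the OA and OA-NO2 groups gave different counts of calls, which share those controls and were not tested against each other. With OA, 6 of 10 receptors rose (all genes, 6.33% higher) and 8 of 10 exceeded chow without overlap (all genes, 16.7%), with a median log2 fold change of 1.70. Both counts include receptors that passed the filter through the NASH diet groups: Tlr1, Tlr6 and Tlr8 among the calls, and these and Tlr9 among those without overlap. The called receptors were Tlr1 (2.55 ± 0.44), Tlr2 (1.73 ± 0.32), Tlr6 (1.59 ± 0.41), Tlr7 (1.68 ± 0.30), Tlr8 (2.16 ± 0.46) and Tlr13 (2.38 ± 0.32), with adjusted p from 0.00249 to 0.0303. The Tlr6 call held in 1 and that of Tlr8 in 3 of 6 fits without a library: Tlr6 was lost without any chow library or OA replicate 1 or 2 (adjusted p up to 0.131), and Tlr8 without chow replicate 1 or OA replicate 1 or 2 (up to 0.0605). Tlr4 stood just outside the threshold at 1.22 ± 0.36 (adjusted p = 0.0504) and was called without OA replicate 3 (0.0221). Tlr9 (57 counts with OA, 4 in chow) had an adjusted p of 0.0743 and was also called without OA replicate 3 (0.0461), which made the count 8 of 10. Tlr3 (0.03 ± 0.18, adjusted p = 0.940) and Tlr5 (0.10 ± 0.23, adjusted p = 0.812) overlapped chow. Without OA replicate 3 their log2 fold changes were -0.10 and -0.14.

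With OA-NO2, edgeR called 0 of 10 receptors against chow, with 5 at an unadjusted p under 0.05 and 0 called by DESeq2 (653 genes in all). Among all genes edgeR called 0.435% higher, and 12.3% were higher and 9.27% lower without overlap. Without overlap, 4 of 10 were higher (Tlr1, Tlr6, Tlr7 and Tlr13) and 1 lower (Tlr3). Of the higher ones, Tlr1 and Tlr6 passed the filter through the NASH diet groups. The receptors' median log2 fold change was 0.87. Tlr1 had the largest value among those with over 4 chow counts, 1.35 ± 0.45 (adjusted p = 0.147), followed by Tlr6 at 0.97 ± 0.42 (0.236) and Tlr13 at 0.90 ± 0.32 (0.170). Tlr7, at 0.85 ± 0.31 (adjusted p = 0.171), was called with library size alone (0.0498). Tlr8 (0.89 ± 0.47, adjusted p = 0.323), Tlr2 (0.61 ± 0.32, 0.322), Tlr4 (0.33 ± 0.36, 0.654) and Tlr5 (0.14 ± 0.23, 0.774) overlapped chow, as did Tlr9 (adjusted p = 0.441). Tlr3 was at -0.50 ± 0.18 (adjusted p = 0.170).

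The receptors need partner proteins that load their ligands or carry them to endosomes, and part of this list rose in vehicle over chow. Of 15 coreceptors, chaperones and transporters, 14 were tested and 7 rose and 0 fell, with a median log2 fold change of 0.70, where 11.1% of all genes rose and 8.16% fell with a median of -0.01. The lowest p were those of Ly86 (1.80 ± 0.32, adjusted p = 0.00381) and Cd180 (1.92 ± 0.37, adjusted p = 0.00534), which together form a receptor related to Tlr4, and of Lgmn (1.19 ± 0.22, adjusted p = 0.00477), a lysosomal protease that processes endosomal receptors. Cd14, which hands lipopolysaccharide to Tlr4, rose from 3.07 ± 0.367 to 10.8 ± 3.45 CPM (1.79 ± 0.41, adjusted p = 0.0115). By contrast Ly96, the subunit that binds lipopolysaccharide with Tlr4, was at 2.74 ± 0.598 and 3.05 ± 0.249 CPM (0.16 ± 0.25, adjusted p = 0.679). Unc93b1, the chaperone that moves the nucleic acid receptors to endosomes, rose by 0.69 ± 0.18 (adjusted p = 0.0214), a call kept in 3 of 6 fits without a library (adjusted p up to 0.0859). The 7 included 1 more Toll-like receptor, Tlr12, at 7.80 to 20.9 CPM in chow and 25.6 to 39.2 CPM with vehicle (1.12 ± 0.29, adjusted p = 0.0189; called in 3 of 6 fits, up to 0.0813). Tlr11 was below the filter, with at most 0.871 CPM in any library.

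Inside the cell the pattern was uneven. Of 6 adaptor genes, 5 were tested and 0 called by edgeR or by DESeq2, with 0 at an unadjusted p under 0.05. Myd88, the adaptor of all members but Tlr3, was at 17.9 ± 3.38 CPM in chow and 14.8 ± 1.43 CPM with vehicle (-0.28 ± 0.17, adjusted p = 0.254). Ticam1, the adaptor of Tlr3, had a log2 fold change of 0.09 ± 0.22 (adjusted p = 0.806). Of 18 kinases and ubiquitin ligases, 3 rose and 1 fell, with a median of -0.15 and shares near those of all genes (11.1% higher, 8.16% lower): Ikbke, a kinase of interferon regulatory factors (0.98 ± 0.25), Ube2n, a ubiquitin-conjugating enzyme (0.50 ± 0.14), Traf3, a ubiquitin ligase (0.70 ± 0.23), and Tab3, a subunit of the Tak1 kinase complex (-0.51 ± 0.16). Adjusted p of these 4 ran from 0.0193 to 0.0469. Of 8 transcription factors, 2 rose: Spi1 (PU.1), which sets macrophage identity (1.67 ± 0.29, adjusted p = 0.00373), and Irf8, a factor of myeloid cells (1.50 ± 0.28, adjusted p = 0.00460). Counts of calls in these lists depended on single libraries and on scaling. For the kinases and ligases 0 were higher without chow replicate 1, chow replicate 2 or vehicle replicate 3, 1 without vehicle replicate 2 and 7 with library size alone. Transcription factors counted 5 higher without chow replicate 3 and 6 with library size alone.

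Feedback inhibitors and inducible targets of the pathway also held called genes. Among 11 tested inhibitors, 3 rose and 1 fell: Tnfaip3, the deubiquitinase A20 (1.42 ± 0.30, adjusted p = 0.00813), its partner Tnip1 (1.17 ± 0.28, adjusted p = 0.0149), Irak3, a kinase-like brake on Myd88 signalling (0.95 ± 0.30, adjusted p = 0.0396), and the deubiquitinase Cyld (-0.42 ± 0.12, adjusted p = 0.0274). The falls of Cyld and Tab3 were lost in 6 of 6 fits without a library. With library size alone Cyld had a log2 fold change of 0.10 and Tab3 of 0.01, both without a call and both below the 0.51 by which that scaling moved the median of all genes. Inhibitors counted 1 higher without chow replicate 1 or vehicle replicate 3, and 7 with library size alone. Of 18 target genes listed, 17 were in the table and 12 were tested. Of these 12, 6 rose and 0 fell, with a median of 1.21 (all genes, 11.1% higher and 8.16% lower). Tnf, Il6, Il12b, Nos2 and Ptgs2 were too sparse to test, with group means of at most 0.39, 0.11, 0.43, 0.31 and 0.34 CPM. Ccl5 rose by 2.96 ± 0.45 (adjusted p = 0.00254) and Ccl2 by 3.41 ± 0.76 (adjusted p = 0.0101), chemokines that draw T cells and monocytes, as did the costimulatory molecule Cd86 (0.97 ± 0.22, adjusted p = 0.0106). Ccl5 and Ccl2 had 22 and 15 chow counts in all and passed the filter through the NASH diet groups. So did other tested targets, among them Ccl3, Ccl4, Cxcl2 and Cd80 with 4, 11, 2 and 18 chow counts in all. Without chow replicate 2 the target count was 2, with Ccl2 at an adjusted p of 0.0505. Over the 68 tested genes of the 6 lists the median log2 fold change was 0.24, with 21 higher and 2 lower. edgeR called 0 of the 68 between vehicle, OA and OA-NO2, where 4 (OA against vehicle), 18 (OA-NO2 against vehicle) and 20 (OA-NO2 against OA) had an unadjusted p under 0.05 and DESeq2 called 0, 1 and 0. Over all 14469 tested genes, 564, 2281 and 1740 had such an edgeR p in the same order, and DESeq2 called 0, 287 and 50.

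**Figure D3:**
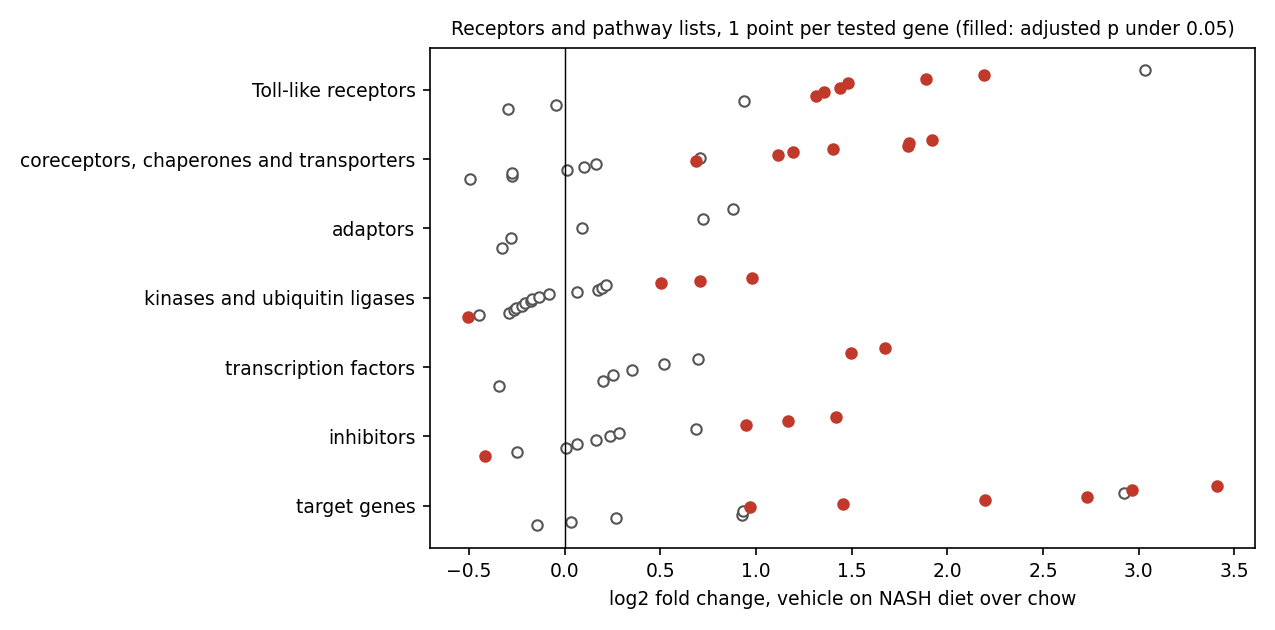
Log2 fold change of vehicle over chow (horizontal axis) for the 10 receptors and the tested genes of 6 pathway lists (1 point per gene, spread vertically for legibility), filled in red at an adjusted p under 0.05 in edgeR. Receptors, coreceptors and target genes hold 6, 7 and 6 filled points to the right of 0, and the 5 adaptors hold 0.

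Markers of immune cells moved in the same samples as the receptors. Of 6 leukocyte markers 6 rose in vehicle over chow, with a summed level of 32.4 to 70.6 CPM in chow, 141 to 177 in vehicle, 96.0 to 186 in OA and 82.0 to 93.2 in OA-NO2 mice. Itgam, a leukocyte marker with 25 chow counts in all, passed the filter through the NASH diet groups. Of 7 macrophage markers 6 rose, with summed levels of 239 to 394, 679 to 802, 610 to 979 and 491 to 540 CPM in the same order of groups. All 7 markers of monocyte-derived macrophages rose, from 10.8 to 17.7 CPM in sum in chow to 93.4 to 179 with vehicle, and these markers held 40.9 to 208 CPM in OA mice and 24.6 to 79.8 in OA-NO2 mice. Of these, Gpnmb, Chil3, Cx3cr1 and Itgax had 9, 15, 23 and 24 chow counts in all, so they passed the filter through the NASH diet groups. Kupffer cell markers were mixed, with 1 of 7 higher and 3 lower. Over all genes 11.1% were called higher and 8.16% lower in vehicle against chow. OA replicate 3 gave the lowest OA sum for leukocyte, macrophage and monocyte-derived macrophage markers, where the OA medians were 184.6, 889.5 and 150.9 CPM. None of the markers in these 4 lists was at 0 in a group. Their part in the receptor results was not tested.

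Calls among the other cell types differed by type. Neutrophil, B cell and endothelial markers gave 0 calls of 4, 6 and 6 tested, and Ly6g was at 0 in the vehicle and OA-NO2 groups. T cell markers gave 2 of 6 higher, dendritic cell markers 1 of 5, stellate cell markers 2 of 6 and cholangiocyte markers 4 of 6, while 4 of 6 hepatocyte markers fell (all genes, 11.1% higher and 8.16% lower). Several T cell and cholangiocyte markers were sparse in chow, among them Trac (7 counts in all) and Cftr (2 counts). In OA-NO2 against vehicle, edgeR called 1 of 72 tested markers, the scavenger receptor Cd163 of resident macrophages (4.85 ± 0.38, adjusted p = 9.81e-05), and 0 of the 7 macrophage markers. DESeq2 called 10 of the 72 in that comparison, among them 3 of 7 for monocyte-derived macrophages, 3 of 7 for Kupffer cells and 1 of 6 for leukocytes. At an unadjusted p under 0.05 in edgeR were 7 of 7 monocyte-derived macrophage markers (median log2 fold change -1.63), 6 of 6 leukocyte markers (-0.86) and 4 of 7 macrophage markers (-0.52). Over all genes this held for 2281 of 14469.

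Setting receptor counts against those of Ptprc (CD45), a pan-leukocyte gene, or of Csf1r, the growth factor receptor of macrophages, gave pictures that depended on the receptor and on the gene chosen. These ratios were chosen after the tests were seen and are a description. Tlr1 had 5.56, 6.21 and 11.2 counts per 100 Ptprc counts as lowest, median and highest in chow, 16.1, 18.1 and 22.0 with vehicle, 17.4, 21.5 and 22.5 in OA mice, and 14.5, 18.6 and 20.2 in OA-NO2 mice. So Tlr1 was higher than chow in every NASH diet library per Ptprc. Per 100 Csf1r counts it had 1.21 to 3.12 in chow, 5.81 to 10.1 with vehicle, 5.63 to 8.25 in OA mice and 2.97 to 5.81 in OA-NO2 mice, so on this scale OA-NO2 overlapped chow. For Tlr2 the ratio was 24.8 to 27.8 in chow, 27.4 to 31.5 with vehicle, 27.7 to 43.1 in OA mice and 30.4 to 31.1 in OA-NO2 mice. Tlr7 had 15.4 to 36.1 in chow and 21.8 to 26.7 with vehicle, and Tlr13 13.8 to 50.0 in chow and 35.1 to 42.0 with vehicle, so these groups overlapped. Per 100 Csf1r counts they did not: Tlr7 had 4.27 to 7.89 in chow and 8.66 to 9.96 with vehicle, Tlr13 3.81 to 10.8 and 11.4 to 19.2, and Tlr2 6.02 to 7.89 and 9.86 to 14.4. Others overlapped per Csf1r: Tlr4 had 3.61 to 7.69 in chow and 4.05 to 7.18 with vehicle, Tlr6 0.69 to 2.41 and 1.12 to 2.35, and Tlr8 2.19 to 3.95 and 3.67 to 6.15. Chow replicate 1 held 2 counts of Tlr1, 13 of Tlr7 and 18 of Tlr13, so its ratios are rough. How often such ratios overlap over all genes was not worked out. Per Ptprc, Tlr3 and Tlr5 had lower ratios with vehicle (32.5 to 39.9 and 32.7 to 56.6) than in chow (63.3 to 133 and 82.1 to 267). The same held per Csf1r, with 12.4 to 14.9 against 17.6 to 28.9 for Tlr3 and 14.9 to 20.4 against 22.8 to 57.8 for Tlr5. With OA-NO2, Tlr5 had 96.2 to 122 counts per 100 of Ptprc, above every vehicle library.

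**Figure D4:**
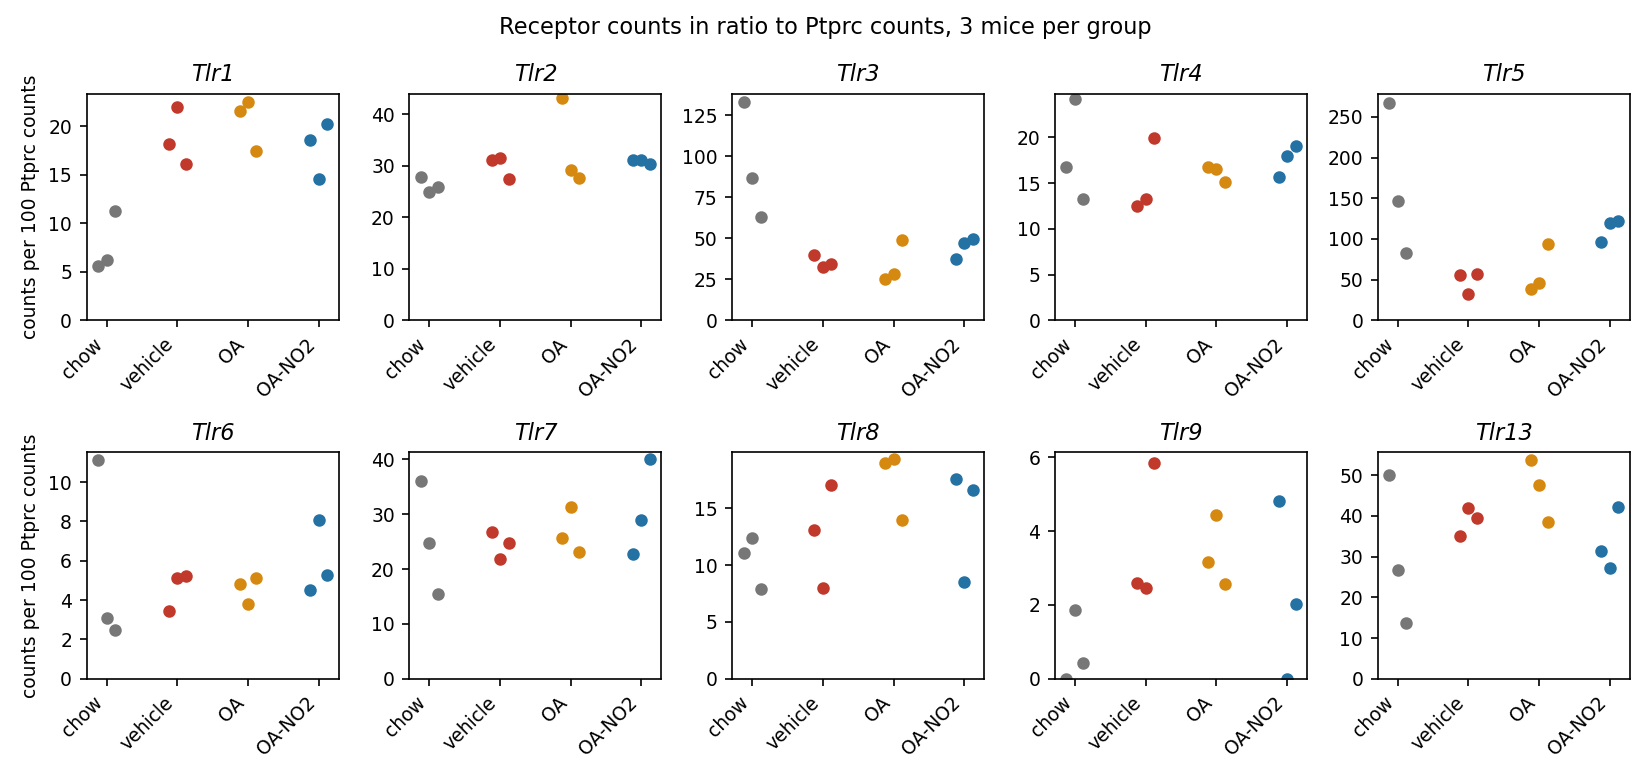
Counts of each receptor per 100 counts of Ptprc (vertical axis, a separate linear scale from 0 for each gene) in the 12 mice, by group. Tlr1 reaches 11.2 in chow and starts at 14.5 in the other groups, Tlr4 and Tlr7 overlap in all groups, and Tlr3 and Tlr5 have their highest values in chow, although chow replicate 3 of Tlr5 lies below the OA-NO2 libraries.

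Across the 12 libraries 8 receptors varied together, apart from Tlr3 and Tlr5, as a description of libraries that share groups. On log2(CPM + 0.5), Pearson's r was 0.969 between Tlr1 and Tlr2, 0.947 between Tlr7 and Tlr13 and 0.937 between Tlr8 and Tlr9, and 0.892, 0.768 and 0.898 for the same pairs once the group means were taken out. Tlr3 and Tlr5 had r of -0.354 to 0.334 with the other members and 0.049 with each other, the last of which was 0.565 after the group means were removed. Tlr6 had r of 0.687 to 0.871 with the other 7 receptors of the larger set, but -0.148 to 0.366 after the group means were removed.

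**Figure D5:**
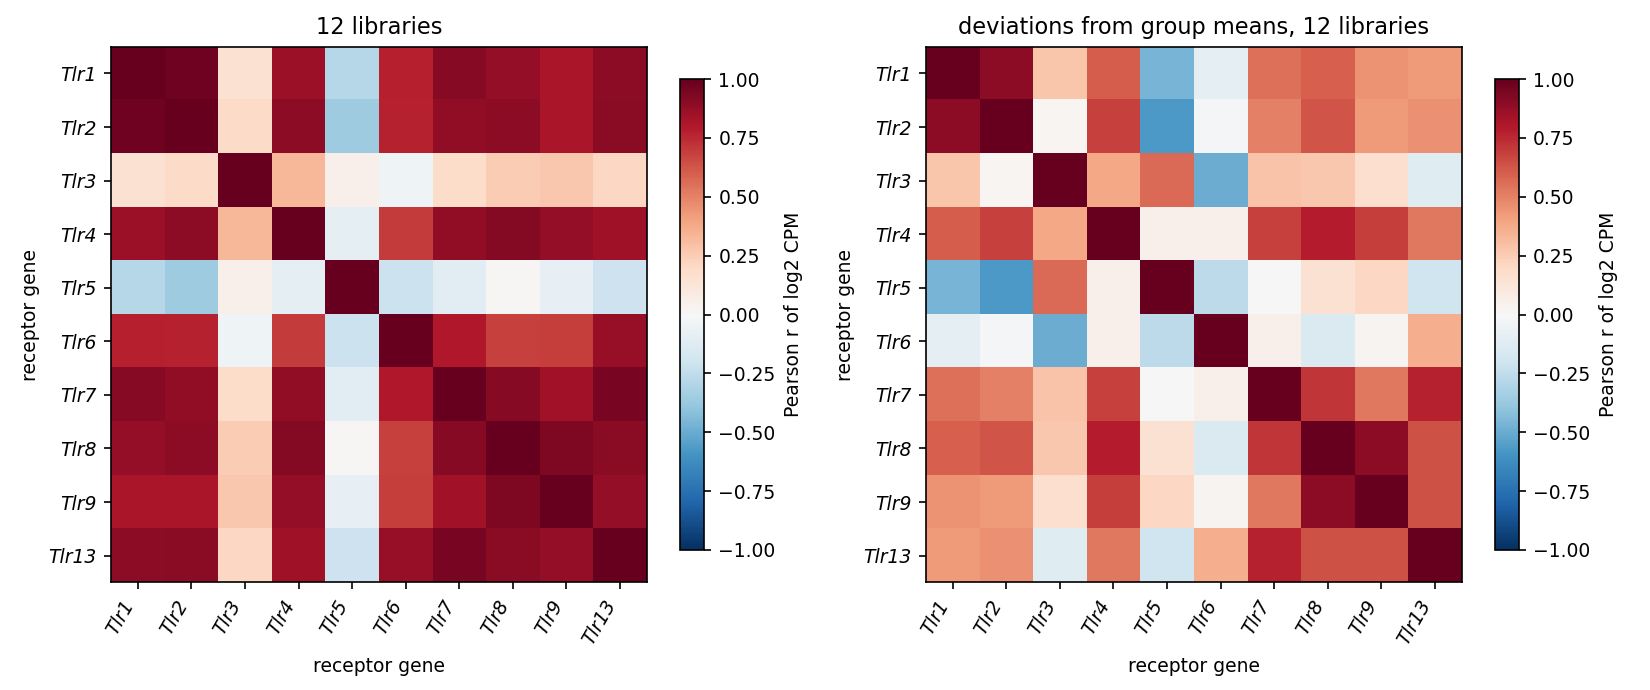
Pearson's r of log2(CPM + 0.5) between each pair of receptors over 12 libraries (left) and for deviations from group means (right), on a colour scale from -1 (blue) to 1 (red). Rows and columns of Tlr3 and Tlr5 are pale or blue on the left, where the other 8 receptors form a red block.

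The genes most like each called receptor were sought among those with a mean of at least 1 CPM. For Tlr1 they were Nckap1l, a regulator of actin in blood cells (r = 0.982), Ear2 (0.979) and Pla2g7 (0.978). Tlr2 was closest to the complement receptor C3ar1 (0.980), the sterol acyltransferase Soat1 (0.978) and Nckap1l (0.977), and Tlr7 to Mpeg1, a pore-forming protein of macrophages (0.978), Ms4a6d (0.953) and Mmp27 (0.948). Tlr8 followed Cap1 (0.977), Gna13 (0.967) and Tbc1d16 (0.951), and Tlr13 followed Hey1 (0.979), Cd300lb (0.976) and Mmp27 (0.958). For Tlr6 the closest genes were Tmem45b (0.951), Mapre1 (0.931) and Heph (0.925). All are r over the 12 libraries, out of 11576 genes compared (11577 for Tlr6).

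The promoter letters GAGGAA were found in some of the called receptors and not in others. RefSeq promoters of GRCm38.p6 held 8 of the 10 members in 10 windows (Tlr1 and Tlr6 have 2 each, and Tlr4 and Tlr7 were not matched), and the 250 bases before each start were searched on both strands. The letters GAGGAA, the core bound by PU.1 (Spi1), were in 4 of the 10 windows, belonging to Tlr1 (1 of its 2 windows), Tlr8, Tlr9 and Tlr13, and in 23.3% of 32851 promoters. The nuclear factor kappa B and interferon-stimulated response motifs were each searched in 1 form only. The searched nuclear factor kappa B form was in the Tlr3 window (1.41% of promoters) and the interferon-stimulated response form in 1 Tlr6 window (2.98%). The lack of a match elsewhere, as for Tlr2, does not show that other forms of these motifs are absent. The AP-1 letters TGACTCA were in the Tlr9 window (4.46%). The 100 bases before the start are shown for 2 receptors that rose with vehicle and hold GAGGAA and for Tlr5, which was not called, 5′ to 3′ on the gene's strand, with GAGGAA, or TTCCTC where it lies on the other strand, in capitals:
Tlr1 (the window of 2 that holds the letters), chr5:64933559-64933658, minus strand: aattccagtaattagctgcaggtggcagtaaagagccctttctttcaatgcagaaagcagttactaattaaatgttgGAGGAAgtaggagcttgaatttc
Tlr8, X:167264330-167264429, minus strand: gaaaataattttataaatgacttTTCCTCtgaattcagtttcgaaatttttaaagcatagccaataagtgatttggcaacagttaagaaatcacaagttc
Tlr5, chr1:182954688-182954787, plus strand: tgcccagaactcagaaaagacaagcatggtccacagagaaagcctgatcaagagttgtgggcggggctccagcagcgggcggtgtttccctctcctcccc
The windows of Tlr2, Tlr3 and Tlr5, both of Tlr6 and the other of Tlr1 lacked GAGGAA, so the called receptors Tlr2 and Tlr6 shared its absence with the uncalled Tlr3 and Tlr5. The first bases after the start in both Tlr6 windows were not found in an annotated Tlr6 transcript, unlike those of the other windows. What the Tlr6 windows hold or lack is therefore uncertain for that gene. A match of letters describes the sequence only.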

How the data were processed

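Libraries of liver mRNA were, per the labels' protocols, trimmed with Trimmomatic 0.35; HISAT2 2.1.0, SAMtools 1.2, HTSeq and the build GRCm38 are named in the submitters' processing notes. For the annotation release, the strand setting and the handling of multi-mapped reads, the choice is not given in the sources used here. Whole-number read counts per gene were deposited by the authors, not normalised, for 24983 genes and 12 libraries; a symbol was found for 24914, and entries that name no gene numbered 0.

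Groups came from the labels, which tell the mice apart by ear tag. Replicate numbers are accession order and do not pair mice. Chi-square per degree of freedom between replicates was at least 24.3, so no library repeated another within sampling noise. Genes were kept with edgeR's default filter (minimum count 10, minimum total 15), leaving 14469. The quasi-likelihood test of edgeR 4.0.16 (R 4.3.3) was run in a single fit of the 12 libraries, scaled by TMM, with a term for each group. Two-sided p-values were adjusted by Benjamini-Hochberg over the 14469 genes, with calls made at adjusted p under 0.05. Approximate standard errors were derived from the log2 fold change and its F statistic. The 95% intervals use them with a normal quantile, so they are narrower than the F test implies. The biological coefficient of variation was 0.226. CPM use TMM-scaled totals. CPM per kb divide by merged exon length. The fit was tested on simulated counts with known changes.

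Alternatives were size factors of DESeq2 (RLE), library size alone, no filter, at least 1 CPM in 3 libraries, 2 groups only, DESeq2 1.42.0 and each library left out in turn. The members, the 6 pathway lists and the 12 marker lists (153 genes, 1 missing from the table) were chosen with earlier results of these data known. All 10 members are named in every comparison; each list adds its 3 called genes with the lowest p in vehicle against chow and any gene called between NASH diet groups. Genes outside that rule were named after their values were seen. They are Cd14, Ly96, Unc93b1, Tlr11, Tlr12, Myd88, Ticam1, Traf3, Irak3, Tnf, Il6, Il12b, Nos2, Ptgs2, Ccl3, Ccl4, Cxcl2, Cd80, the genes that fell and the markers named for sparse counts.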

Additional observations from a re-analysis of the deposited data

How the results depend on the processing

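The counts of called receptors, taken without regard to direction, mostly stayed near the reported ones. Of 72 values of these counts, 68 stayed within 1.5 times the reported one and 4 rose from 0. The 3 comparisons between NASH diet groups and that of OA-NO2 with chow had 0 reported calls. Many of the 68 are therefore 0 against 0, which says little about stability. Where 6 were called, leaving out a library gave 4 to 5 for vehicle against chow and 4 to 8 for OA against chow. For OA-NO2 against OA the count was 1 with no filter and 1 with DESeq2 (Tlr13 in both), and 0 to 2 when a library was left out, with 2 only without OA replicate 3. For OA-NO2 against chow it was 1 with library size alone (Tlr7). The cause was not tested.

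Signs that reversed belonged to receptors with no call. For vehicle against chow, library size alone gave 0.47 for Tlr3 and 0.22 for Tlr5, and leaving out a library gave -0.15 to 0.016 for Tlr3. For OA against vehicle, Tlr3 was -0.028 with library size alone and -0.044 to 0.18 without a library, Tlr6 -0.085 to 0.31 and Tlr9 -0.28 to 0.74. For OA-NO2 against OA, Tlr5 was -0.056 with library size alone and -0.13 to 0.25 without a library. For OA against chow, Tlr3 was -0.10 to 0.14 and Tlr5 -0.14 to 0.27. No paired analysis was possible because the labels carry no replicate numbers. Depth limits Tlr9 (4 chow counts) and Tlr6 (15 chow counts) most, and with 3 mice a group a miss of the threshold does not show that levels were equal. Intervals cover the spread between these mice only.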
